A study of Rattus norvegicus with 20 samples.

Results

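miR-21 is made from a hairpin that carries a small RNA on each side of its loop, rno-miR-21-5p and rno-miR-21-3p, and both were followed here as the 2 rows of that name among 719 rat miRNAs on the array. RNA came from whole kidneys of male Wistar rats, so that fewer cells of a type and less RNA per cell cannot be told apart. Kidneys were taken on day 2, day 4 or day 6 (5 kidneys each) from rats dosed intraperitoneally with 40 mg/kg aristolochic acid I (AAI), a plant acid that is toxic to the kidney. The 5 vehicle kidneys, from rats that received PEG400 and water mixed 1:1 on the same schedule, were all taken on day 6, so AAI days 2 and 4 had no vehicle group of their own day. Each kidney RNA was hybridized to a single-colour Agilent miRNA array, which gave 20 arrays on 3 slides. Nothing in the labels says whether 2 kidneys of a group could share a rat, so p-values measure the spread between these kidneys.

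In the cell, the enzyme Dicer cuts the miR-21 hairpin to a short duplex of the 5p and 3p arms. The guide arm is loaded into Argonaute and directs it to messenger RNAs through its seed, while the passenger arm is mostly degraded. In miR-21 the guide is the 5p arm, which is abundant in many tissues, represses targets such as Pdcd4 in mammals, and is known to be raised in injured and scarring rodent kidney.

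The hairpin and its arms are shown because the arms carry different seeds and differed in their measured change. RefSeq places the hairpin at chr10:71902600-71902691 on the minus strand of GRCr8, 531 bases from the protein-coding gene Vmp1 (chr10:71903223-72002337). The hairpin is 92 bases long and is given 5′ to 3′ with the mature arms in capitals. Each mature arm is 22 bases long and is given with its seed (bases 2 to 8) in capitals.
rno-mir-21 hairpin: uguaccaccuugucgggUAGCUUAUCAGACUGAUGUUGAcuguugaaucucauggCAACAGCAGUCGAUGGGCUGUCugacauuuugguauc
rno-miR-21-5p: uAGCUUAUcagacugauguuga
rno-miR-21-3p: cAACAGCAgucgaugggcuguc
The 5p arm lies at chr10:71902653-71902674 and the 3p arm at chr10:71902615-71902636. The seeds of the arms differ, and among the 693 mature rat miRNAs RefSeq lists no other shared either seed (0 for the 5p arm and 0 for the 3p arm). Of the 719 miRNAs on the array, 641 were matched there by name, both arms among them.

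The array reads each arm through DNA probes that pair with its 3′ end, and these are shown because the short 3p probes gave little or no signal. The 5p arm has 2 probes of 10 spots each and the 3p arm 4 probes of 5 spots each. On the rn4 build used in the file headers, the 5p probes span chr10:74864519-74864538 and the 3p probes chr10:74864562-74864576. In each line the capital is the base that the probe has beyond the next shorter probe of the same arm, and the shortest probe of each arm has no capital.
5p probe of 19 bases: tcaacatcagtctgataag
5p probe of 20 bases: tcaacatcagtctgataagC
3p probe of 12 bases: gacagcccatcg
3p probe of 13 bases: gacagcccatcgA
3p probe of 14 bases: gacagcccatcgaC
3p probe of 15 bases: gacagcccatcgacT
The 20-base probe pairs with bases 3 to 22 of the 5p arm. The 15-base probe pairs with bases 8 to 22 of the 3p arm, so it reaches 1 base of that seed. All 4 probes of the 3p arm lie within those bases and none reads the whole seed.

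The data could be compared between arrays after scaling. Each array detected 250 to 328 miRNAs, and levels correlated at 0.912 to 0.996 across miRNAs between arrays of a group. Of the tubule miRNAs 6 of 6 (miR-192-5p, miR-194-5p, miR-204-5p, miR-30a-5p, miR-30d-5p and miR-200b-3p) were detected on all 5 arrays of each group. So were 231 of the 719 miRNAs on the array, and 2 of 7 miRNAs of other organs (miR-9a-5p and miR-375-3p). Detection alone therefore does not identify the tissue. A level below is the log2 of a miRNA's summed probe signal over the 75th percentile of its array, so 0 is that percentile and 1 unit is a factor of 2.

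The comparison of AAI day 6 with vehicle asks how the arms stood at the same collection time. Both arms were higher in AAI day 6 kidneys, and the measured change was larger for the 3p arm. Whether the 3p arm rose more than the 5p arm is not established, since the vehicle 3p signal was near background. The guide arm rose 2.16-fold. The passenger arm, which was not well above background in vehicle kidneys, rose at least 3.53-fold by its 15-base probe and at least 2.58-fold by its 14-base probe. Here and below, such a bound concerns the vehicle signal alone. It compares group means, carries no interval and takes no account of slide. Of all tested miRNAs 26.3% passed the threshold in this comparison (69 of 262) and 7.25% passed as higher. Of the 2 arms, 2 passed as higher. The 3p arm was tested because it was detected on all 5 arrays of each AAI group, against 3 of the 5 vehicle arrays, so it entered through the groups in which it was high.

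The 5p arm lay above the 75th percentile on every array. Its log2 level was 5.34, 4.48, 3.91, 3.76 and 4.98 on the AAI day 6 arrays 1 to 5, against 3.42, 3.35, 3.37, 3.30 and 3.46 on the vehicle arrays 1 to 5. All AAI day 6 arrays lay above all vehicle arrays, which was so for 4.2% of tested miRNAs, and AAI arrays 1 and 5 stood highest. The SD was 0.68 in AAI day 6 kidneys and 0.06 in vehicle kidneys (n = 5 each). The log2 change in limma was 1.11 ± 0.24 (SE; 2.16-fold, 95% interval 1.51 to 3.09; adjusted p = 0.00292). That call was lost with slide as a fixed (adjusted p = 0.424) or random block (0.0760).

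The 3p arm was dim throughout. Its log2 level was -1.99, -2.18, -2.93, -3.03 and -1.70 on the AAI day 6 arrays, against -4.51, -4.98, -5.46, -5.78 and -5.14 on the vehicle arrays. Again no AAI day 6 array overlapped the vehicle arrays, and AAI arrays 1 and 5 were the highest, as for the 5p arm. The measured log2 change was 2.81 ± 0.32 (limma adjusted p = 1.94e-05). None of the 3p probes was well above background on any vehicle array, so the vehicle mean of -5.17 is not a measured level and the change was bounded probe by probe. On each vehicle array a probe was set to the lowest signal of any probe well above background there (7.88 to 11.1 intensity units) or to its own signal where higher. For the 15-base probe the mean log2 level was -3.38 at AAI day 6, against -5.20 in vehicle kidneys at that bound and -5.68 as measured, which gives the 3.53-fold. For the 14-base probe it was -3.85 at AAI day 6, against -5.21 at the bound and -6.26 as measured in vehicle kidneys.

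**Figure D1:**
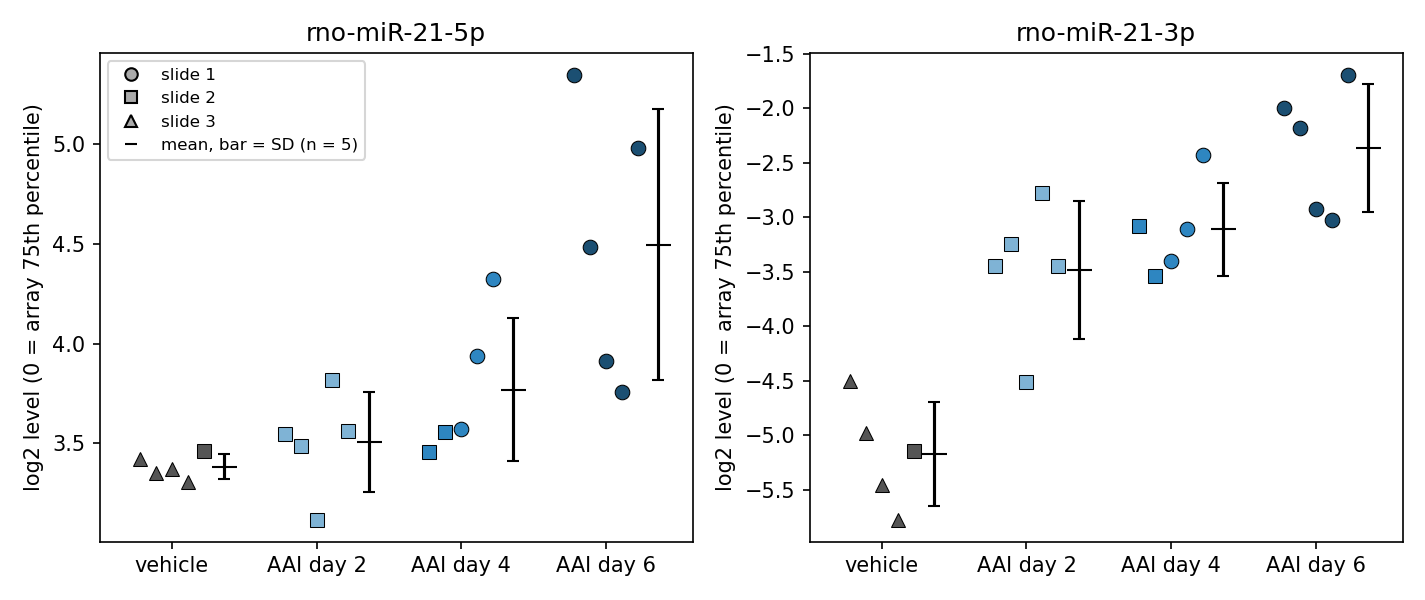
Log2 level of rno-miR-21-5p (left) and rno-miR-21-3p (right) on each of 20 arrays, by group, with 0 at the 75th percentile of the array. Points are arrays, shapes are slides, and dashes with bars are the mean and SD (n = 5). The 3p arm of AAI days 4 and 6 lies above all vehicle arrays, and the 5p arm does so at AAI day 6.

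At AAI day 4 the passenger arm passed the test as higher and the guide arm did not. These tests set each arm against vehicle and do not compare the arms or the AAI days. The 3p test again took vehicle signals that were not well above background, and 3p entered it through the AAI groups. In this comparison 3.82% of tested miRNAs passed (10 of 262) and 2.29% passed as higher, and 1 of the 2 arms passed as higher. The 3p log2 level was -3.08, -3.54, -3.40, -3.10 and -2.43 in AAI day 4 kidneys. These arrays all lay above all vehicle arrays, as 3.05% of tested miRNAs did. The measured log2 change of the 3p arm was 2.06 ± 0.32 (limma adjusted p = 9.46e-04), and by the bound the 15-base probe was at least 2.13-fold and the 14-base probe at least 1.60-fold higher. That call was lost with slide as a fixed (adjusted p = 0.0853) or random block (0.0507). The 5p log2 level was 3.46, 3.56, 3.57, 3.94 and 4.32 in AAI day 4 kidneys, and the lowest of these did not clear the highest vehicle array. The log2 change of the 5p arm was 0.39 ± 0.24 (95% interval -0.13 to 0.90; limma adjusted p = 0.348).

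At AAI day 2 the 3p arm was again the arm that passed, with the same limits of its vehicle signal and of its entry into the test. Of tested miRNAs 1.53% passed (4 of 262), all of them higher. The 3p log2 level was -3.45, -3.24, -4.51, -2.78 and -3.44 in AAI day 2 kidneys. Array 3 was within the range of the vehicle arrays, so the groups overlapped (1.91% of tested miRNAs had all AAI day 2 arrays above all vehicle arrays). The measured log2 change of the 3p arm was 1.69 ± 0.32 (limma adjusted p = 0.0151), and by the bound the 15-base probe was at least 1.71-fold higher. The 14-base probe gave 1.26-fold against the bound. It was well above background on only 4 of 5 AAI day 2 arrays, so 1.26-fold is not a strict lower bound. The 3p call was also lost with slide as a fixed (limma adjusted p = 0.981) or random block (0.130). When AAI day 2 array 4 was left out the adjusted p was 0.0669, and when vehicle array 4 was left out it was 0.0678, so the call rests on both. The 5p log2 level was 3.55, 3.49, 3.12, 3.82 and 3.56 in AAI day 2 kidneys, with array 3 below every vehicle array. The log2 change of the 5p arm was 0.12 ± 0.24 (95% interval -0.39 to 0.64; adjusted p = 0.892).

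The 3p arm had more spots well above background in each AAI group than in vehicle kidneys. The median count was 10 at each AAI day, against 1 in vehicle kidneys. The 5p arm had 20 of 20 spots well above background on each array. Of the 20 spots of the 3p arm, 10, 11, 5, 10 and 10 were well above background on the AAI day 2 arrays and 10 on each AAI day 4 array. The AAI day 6 arrays had 15, 10, 10, 10 and 15 such spots, and the vehicle arrays 2, 1, 0, 0 and 1. The lowest AAI array therefore had more such spots than the highest vehicle array. The detection flag of the scanner software was wider: it marked the 3p arm as present on all 15 AAI arrays and on 3 of the 5 vehicle arrays.

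The raw signal shows how close the vehicle 3p arm was to the background. Summed over the 4 probes, the background-subtracted 3p intensity was 134, 68.2, 69.3, 64.7 and 154 on the AAI day 6 arrays, against 13.7, 11.2, 10.3, 6.39 and 10.3 on the vehicle arrays. For comparison, 4 times the mean negative-control spot of the array was 4.11 to 7.17 on the AAI day 6 arrays, against 4.23 to 9.62 on the vehicle arrays. The 3p signal was at least 25.99 on every AAI array, and it was above the control sum on every array.

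The gain in 3p signal sat on the longer probes. The 15-base probe averaged 48.6 ± 21.3 intensity units at AAI day 6, against 7.17 ± 1.16 in vehicle kidneys (SD, n = 5). The 14-base probe averaged 35.1 ± 15.1 at AAI day 6, against 4.88 ± 1.30 in vehicle kidneys. Both were well above background on 5 of 5 AAI day 6 arrays and 0 of 5 vehicle arrays. The 13-base probe was well above background on 2 AAI day 6 arrays, and the 12-base probe on 0 arrays of any group. Taken alone, the 14-base and 15-base probes changed by 2.41 and 2.30 log2 units between AAI day 6 and vehicle. The 19-base and 20-base probes of the 5p arm changed by 1.26 and 1.03 log2 units in the same comparison.

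**Figure D2:**
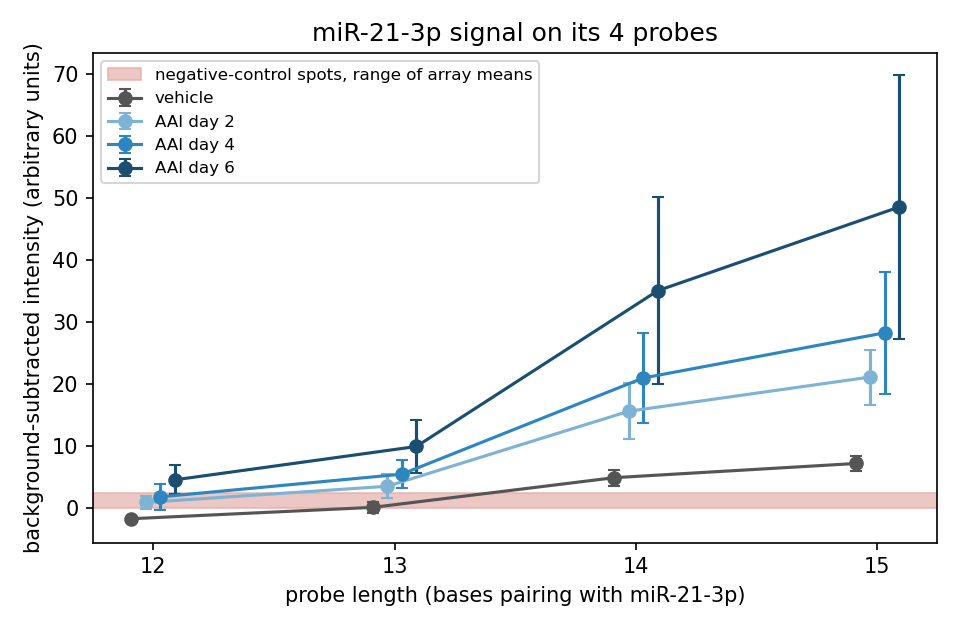
Background-subtracted intensity of the 4 probes of rno-miR-21-3p against probe length, as the mean and SD over 5 arrays of each group. The shaded band is the range of the array means of the negative-control spots. The 14-base and 15-base probes stand above the band in each group, at 35.1 and 48.6 in AAI day 6 kidneys and at 4.88 and 7.17 in vehicle kidneys.

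The balance of the arms was followed as the arm difference, the log2 level of 5p minus that of 3p on the same array, in which any scaling of the array cancels. The arms are read by different probes, so the difference is not a ratio of molecules, and it can only be set against itself in other groups. It was lower at each AAI day than in vehicle kidneys, and its mean was 6.99, 6.88 and 6.86 at AAI days 2, 4 and 6, against 8.56 in vehicle kidneys. The vehicle value rests on a 3p signal that was not well above background.

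The arm difference was 7.34, 6.66, 6.84, 6.79 and 6.68 on the AAI day 6 arrays, against 7.93, 8.33, 8.83, 9.08 and 8.60 on the vehicle arrays. It was 6.54, 7.10, 6.97, 7.04 and 6.76 on the AAI day 4 arrays, and 6.998, 6.73, 7.63, 6.60 and 7.002 on the AAI day 2 arrays. Every AAI array lay below every vehicle array. Of the 44 hairpins with both arms tested, 6.82% were below all vehicle arrays at AAI day 6, 9.09% at day 4 and 6.82% at day 2.

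In a limma fit over the 44 hairpins the miR-21 arm difference changed by -1.69 ± 0.21 at AAI day 6 against vehicle (95% interval -2.14 to -1.25; adjusted p = 1.51e-05). It changed by -1.68 ± 0.21 at AAI day 4 (adjusted p = 1.76e-05) and by -1.57 ± 0.21 at AAI day 2 (adjusted p = 4.45e-05). The fit takes the vehicle 3p signal as measured, although it was not well above background, so the size of these changes is not established. miR-21 entered the fit through the AAI groups, in which 3p was high. With the vehicle bound, 3p rose at least 3.53-fold (longest probe) or 2.58-fold (next longest) at AAI day 6. The 5p rise was 2.16-fold (95% interval 1.51 to 3.09), and the arm difference was not tested at that bound. The share of hairpins that passed was 22.7% at day 6, 9.09% at day 4 and 4.55% at day 2, and the share that passed as lower was 15.9%, 6.82% and 2.27% on those days. Each of the 3 contrasts with vehicle had an exact two-sided permutation p of 0.00794 over all splits (0.0159 adjusted over 6 contrasts), the smallest that 5 against 5 arrays allow. That p follows from the lack of overlap given above, so it adds no support of its own, and the splits took no account of slide. The 3 contrasts share the vehicle arrays. With normexp background correction and an offset of 50 added to each probe the direction turned, to 0.81, 0.28 and 0.21 at AAI days 6, 4 and 2, and none passed. That offset is above the mean signal of each 3p probe in every group, and the 3p change with it was 0.29, 0.12 and -0.03 on those days. The cause of the turn was not tested. With the scanner software's own totals the arm difference changed by -0.89, -2.52 and -2.77, and none of the 3 passed.

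**Figure D3:**
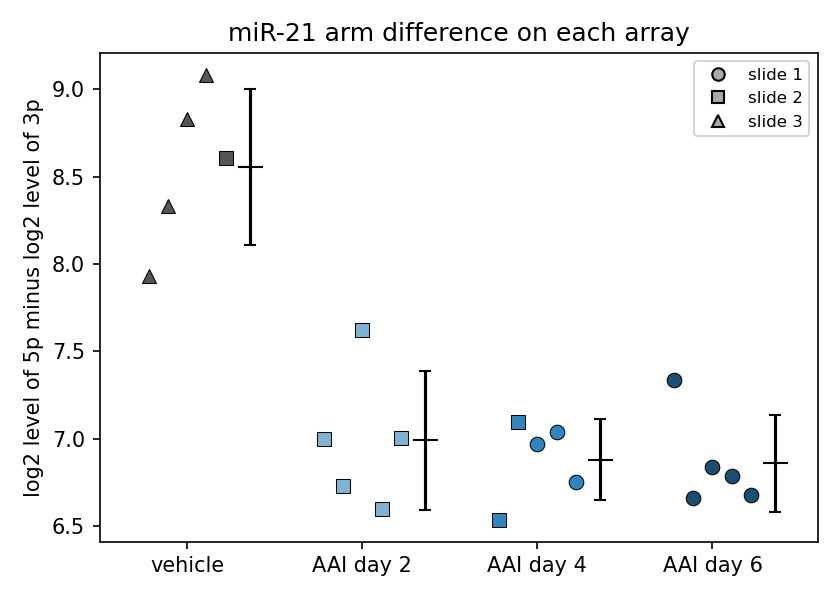
Arm difference of miR-21 (log2 level of 5p minus log2 level of 3p) on each array, by group, with shapes for slides and the mean and SD (n = 5) beside the points. The 15 AAI arrays lie between 6.54 and 7.63, all below the vehicle arrays, which lie between 7.93 and 9.08.

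Between AAI days the arm difference changed by -0.02 at day 6 against day 4 (95% interval -0.47 to 0.43), by -0.13 at day 6 against day 2 (-0.58 to 0.32) and by -0.11 at day 4 against day 2 (-0.56 to 0.34), and none of these passed (limma adjusted p = 0.982, 0.714 and 0.870). The intervals still allow a change of up to 0.58 log2 units.

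Mean levels of the arms themselves rose in the order of the AAI days. All AAI day 2 arrays were on slide 2 and all AAI day 6 arrays on slide 1, so these days shared no slide. The mean 5p log2 level was 3.51, 3.77 and 4.50 at AAI days 2, 4 and 6. The mean 3p log2 level was -3.48, -3.11 and -2.37 on those days. Between neighbouring days neither arm passed after adjustment. At day 6 against day 4, where 0.763% of tested miRNAs passed, the 5p arm changed by 0.73 ± 0.24 in limma (95% interval 0.21 to 1.24; adjusted p = 0.154). The 3p arm changed by 0.75 ± 0.32 there (95% interval 0.066 to 1.43; limma adjusted p = 0.378). Both intervals, which are not adjusted over miRNAs, lie above 0. At day 4 against day 2 the changes were 0.26 ± 0.24 and 0.37 ± 0.32 (adjusted p = 0.854 for both), where 0% passed. At day 6 against day 2, where 11.5% of tested miRNAs passed and 3.44% passed as higher, the 5p arm rose by 0.99 ± 0.24 (adjusted p = 0.0222) and the 3p arm by 1.12 ± 0.32 (adjusted p = 0.0317). Both of these calls were lost under several other settings, listed in the closing section.

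Across AAI arrays the arms moved together. Pearson's r between the log2 levels of the arms was 0.91 and Spearman's rho 0.85 over 15 AAI arrays, and 0.83 and 0.85 over their deviations from the mean of their group. Without the 2 arrays farthest from the median 5p level, r was 0.91 and 0.87. These arrays share scaling and slides, and the values are descriptions.

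Slide overlapped with group. Slide 1 held the 5 arrays of AAI day 6 and arrays 3, 4 and 5 of AAI day 4. Slide 2 held the 5 arrays of AAI day 2, arrays 1 and 2 of AAI day 4 and vehicle array 5, and slide 3 held vehicle arrays 1 to 4. No slide held both AAI day 6 and vehicle arrays, so their difference is adjusted for slide only through the arrays that link the slides. Slide 3 held vehicle arrays alone, so a contrast with vehicle under a fixed slide block or within slide 2 rests on vehicle array 5, which is assumed to vary like the arrays of the other groups. With slide as a fixed block, the 5p change at AAI day 6 was 0.60 ± 0.56 (limma adjusted p = 0.424) and as a random block 0.93 ± 0.37 (0.0760), so that call was lost. The 3p change at AAI day 6 was past the threshold, at 2.44 ± 0.76 (0.0264) and 2.67 ± 0.49 (0.00302).

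With a fixed slide block, the 3p change at AAI day 4 was 1.83 ± 0.66 (adjusted p = 0.0853), and with a random block it was 1.99 ± 0.44 (0.0507). At AAI day 2 it was 1.66 ± 0.59 (0.981) and 1.72 ± 0.43 (0.130), so the earlier 3p calls were lost too. Within slide 2, where vehicle had the single array 5, the 3p change was 1.83 at AAI day 4 and 1.66 at AAI day 2. The 5p change within slide 2 was 0.05 at AAI day 4 and 0.04 at AAI day 2.

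The arm difference against vehicle rests on the same single vehicle array in these settings. With slide as a fixed block it changed by -1.85 ± 0.51 at AAI day 6 (adjusted p = 0.0345), by -1.79 ± 0.44 at day 4 (0.0202) and by -1.61 ± 0.39 at day 2 (0.0371). As a random block the 3 changes were -1.72, -1.69 and -1.57 and passed. Within slide 2 the arm difference changed by -1.79 at AAI day 4 and by -1.61 at AAI day 2, which with a single vehicle array is given without a test. Within slide 1 the arm difference changed by -0.06 at AAI day 6 against day 4 (adjusted p = 0.915). Without AAI day 4 array 2, which links slides 1 and 2, the fixed block gave -2.13 at AAI day 6 and the call was lost (adjusted p = 0.0571).

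**Figure D4:**
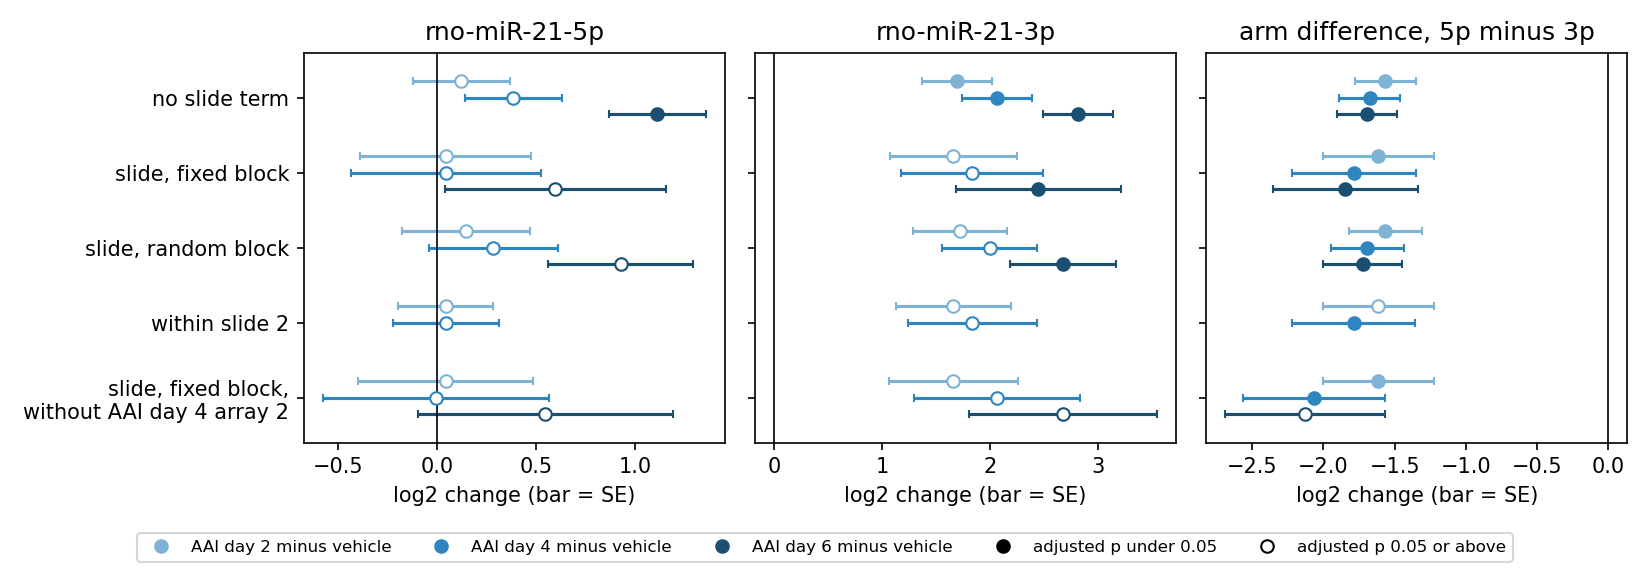
Log2 change against vehicle of the 5p arm, the 3p arm and the arm difference at AAI days 2, 4 and 6, under 5 treatments of slide. Bars are SE, and filled points have a limma adjusted p under 0.05. With slide as a fixed block and within slide 2, vehicle is array 5 alone, and within slide 2 the fill is not read as a test. The arm difference lies between -2.13 and -1.57, and the 5p change at AAI day 6 lies between 0.55 and 1.11.

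The measured change of the miR-21 arm difference was set against that of other hairpins. Over the 44 hairpins the median change of the arm difference at AAI day 6 was -0.02. Among the other hairpins the lowest measured changes were in miR-3593 (-2.24 ± 1.12, adjusted p = 0.160) and miR-125a (-0.80 ± 0.32, 0.0878). The highest changes were in miR-23a (4.51 ± 0.89, 0.00130), miR-328a (0.84 ± 0.50, 0.223) and miR-20a (0.48 ± 0.15, 0.0288). At AAI days 4 and 2 the medians were -0.0035 and 0.014. With its vehicle 3p arm near background, miR-21 was given no rank among them.

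**Figure D5:**
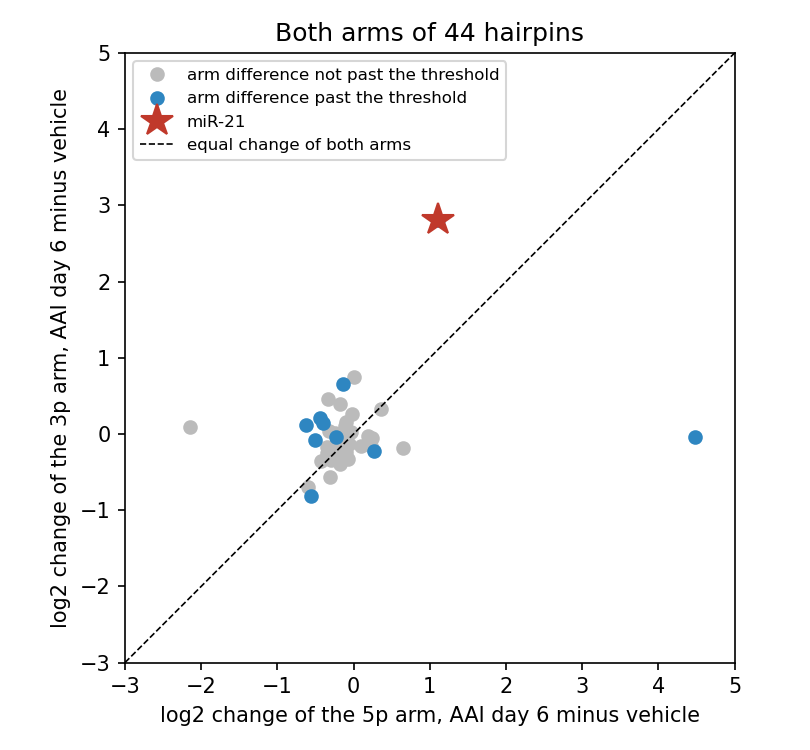
Log2 change of the 3p arm against that of the 5p arm at AAI day 6 minus vehicle, for 44 hairpins. The dashed line marks equal change and the star is miR-21, at 1.11 and 2.81. Blue points had an arm difference past the threshold.

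The miRNAs with the pattern most like each arm were named by Pearson's r of log2 level over 20 arrays, given without a test. For the 5p arm they were miR-34c-5p (0.91), miR-146b-5p (0.89), miR-34a-5p (0.87), miR-34b-5p (0.85) and miR-18a-5p (0.83). At AAI day 6 these changed by 1.28, 0.80, 2.92, 1.104 and 0.71 log2 units against vehicle. They were picked for following the 5p arm over these same arrays, so their changes restate the choice. For the 3p arm they were miR-34a-5p (0.80), miR-341 (0.79), miR-21-5p (0.78), miR-465-5p (0.72) and, at 0.71, miR-551b-5p. The last 2 changed by 1.53 and 1.22 log2 units at AAI day 2 against vehicle, which again follows from the choice, and they were detected on 1 and 2 of 5 vehicle arrays. The 3p arm ranked 8 of 261 by likeness to the 5p arm, and the 5p arm ranked 3 of 261 by likeness to the 3p arm.

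Among 11 tested miRNAs of a list reported as raised in injured kidney, which leaves out miR-21, 2 rose and 2 fell at AAI day 6 against vehicle, where 7.25% of all tested miRNAs rose and 19.1% fell. The p53 target miR-34a-5p (2.92 ± 0.37, adjusted p = 2.23e-05) and the miR-17-92 cluster member miR-18a-5p (0.71 ± 0.25, 0.0417) rose. miR-146a-5p, which dampens NF-kappaB signalling (-0.72 ± 0.09), and miR-214-3p, of fibroblasts (-0.25 ± 0.08), fell. The list's median change was -0.15, against -0.11 over all tested miRNAs. At AAI day 4, 0 rose and 1 fell, where 2.29% of all tested miRNAs rose and 1.53% fell. At day 2 limma called 0 of them, where 1.53% of all tested miRNAs passed.

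Lists of cell-type markers were also compared at AAI day 6 against vehicle, where 19.1% of all tested miRNAs fell. These groups shared no slide, and the sums and calls below take no account of slide. The summed level of 6 leukocyte miRNAs, in multiples of the 75th percentile, was 2.69 to 3.53 in AAI day 6 kidneys and 4.02 to 4.23 in vehicle kidneys, and 2 of the 6 fell. The summed level of 6 tubule miRNAs was 22.1 to 27.3 in AAI day 6 kidneys and 28.5 to 29.7 in vehicle kidneys, and 3 of the 6 fell. The summed level of 3 erythrocyte miRNAs was 0.0555 to 0.202 in AAI day 6 kidneys and 0.408 to 1.35 in vehicle kidneys. Of the 5 stromal miRNAs 1 fell, near the share of all tested miRNAs, and of the 2 endothelial miRNAs 1 fell. Of 7 miRNAs of other organs 2 were tested and neither passed. Of the leukocyte miRNAs 0 rose. Of the erythrocyte miRNAs, miR-144-5p was detected on 0 arrays of every group, and miR-144-3p on 0 AAI day 6 arrays and 3 vehicle arrays. The 1 tested erythrocyte miRNA, miR-451-5p, fell (-2.73 ± 0.34, limma adjusted p = 2.18e-05). The part of these cells in the change of miR-21 was not tested.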

How the data were processed

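Arrays were scanned and quantified in Agilent Feature Extraction 10.7.1.1, per the file headers, which gave the deposited background-subtracted intensity of each spot in arbitrary units. The deposited spot flags (detected, well above background, saturated, outlier) are 0 or 1 and of the other kind. The authors' deposited log2 values have column medians from -3.32 to -3.01, and their scaling and centring are not stated, so they served as an alternative. Unflagged spots of a probe were averaged and the probes of a miRNA were summed. The sum was divided by the array's 75th percentile over 231 miRNAs detected on all arrays (309 to 592 units), floored at 0.000391 and log2-transformed. The 262 of 719 miRNAs detected on all 5 arrays of some group were tested, a filter the 3p arm passed through the AAI groups. limma 3.58.1 (R 4.3.3, files read with the data.table package, version 1.17.8) fitted the 4 group means, with 16 residual and 2.03 prior degrees of freedom. Tests were two-sided, with Benjamini-Hochberg adjustment over all tested miRNAs (or the 44 hairpins) in each contrast and a threshold of 0.05. A probe was well above background on an array when more than 50% of its spots were. Saturated spots numbered 0. The number of arrays limits the precision. The fits were tested on simulated data. Members, lists and the named miRNAs (the 5 most alike per arm, the 3 highest and 3 lowest hairpins) were chosen with earlier results of these data known. Sequences are RefSeq's (GRCr8) and the array's own probes (rn4). Alternatives covered background, scaling, summing, filter, floor, slide, replicate number, the deposited log2 values and each array left out; 3 (negative controls subtracted, brightest probe, a higher floor) were chosen after seeing the data.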

Additional observations from a re-analysis of the deposited data

Results flagged for a closer look

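In AAI day 6 kidneys the arm difference of array 1 was 7.34, while the other 4 arrays lay between 6.66 and 6.84. Its gap to the nearest of them was 0.738 of the group's range, above the critical value of 0.71 for 5 arrays. Array 1 also had the highest 5p level of all 20 arrays (5.34). Without it the arm difference at AAI day 6 against vehicle remained past the threshold in limma. Of 12 sets of 5 arrays examined for a member level or the arm difference this was the single array set apart, and chance sets apart about 1 in 20 groups.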

How the results depend on the processing

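With normexp (offset 50) the arm difference reversed to 0.81, 0.28 and 0.21 at AAI days 6, 4 and 2 against vehicle, and to 0.53, 0.60 and 0.073 at day 6 against day 4, day 6 against day 2 and day 4 against day 2. The 3p change was then 0.29, 0.12 and -0.031 against vehicle. The changes at day 6 against day 2 were 0.92 (5p) and 0.32 (3p). None passed. The software's own total gave arm differences of -0.89, -2.52 and -2.77 at AAI days 6, 4 and 2 against vehicle and 1.62, 1.88 and 0.26 between days (in the order above). It gave 3p changes of 2.22, 2.99 and 2.98 against vehicle and of -0.77 and -0.76 at day 6 against days 4 and 2. None of these passed, and the cause was not tested.

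The authors' deposited log2 values gave larger changes: 4.83 and 3.84 for 3p at days 6 and 4 against vehicle (main values 2.81 and 2.06) and -3.79, -3.43 and -3.50 for the arm difference at days 6, 4 and 2 (-1.69, -1.68 and -1.57), all past the threshold. They gave 3.72 for 3p at day 2 against vehicle and 1.11 for 3p at day 6 against day 2, neither past the threshold, and 0.073 for the arm difference at day 4 against day 2. Quantile normalization took the call from 3p at day 2 (1.61) and at day 6 against day 2 (1.09). The day 6 against day 2 calls were also lost with median scaling (5p 1.01, 3p 1.14), spike-in scaling (5p 1.01, 3p 1.14) and, for 5p, no scaling (1.06).

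With slide as a fixed block the lost calls were 5p at day 6 (0.60), 3p at days 4 (1.83) and 2 (1.66), and both arms at day 6 against day 2 (5p 0.55, 3p 0.79). As a random block they were 5p at day 6 (0.93), 3p at days 4 (1.99) and 2 (1.72), and both arms at day 6 against day 2 (5p 0.78, 3p 0.96). Within slide 2, against the single vehicle array 5, 3p changed by 1.83 and 1.66 at days 4 and 2. The arm difference changed by -1.79 and -1.61 there, and neither is read as a test. The fixed block without AAI day 4 array 2 lost the arm difference at day 6 (-2.13), 5p at day 6 (0.55), 3p at days 6, 4 and 2 (2.68, 2.06, 1.66) and both arms at day 6 against day 2 (5p 0.50, 3p 1.02). It also turned the uncalled 5p changes at day 4 to -0.0049 against vehicle and -0.049 against day 2. The cause of these losses was not tested.

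With 1 array left out, the arm difference was -1.85 to -1.56, -1.83 to -1.54 and -1.72 to -1.43 at AAI days 6, 4 and 2 against vehicle and kept its calls. Between days it was -0.14 to 0.036 (6 against 4), -0.25 to 0.029 (6 against 2) and -0.21 to 0.048 (4 against 2), never past the threshold. The 3p change at day 2 against vehicle was 1.51 to 1.94 and lost its call without AAI day 2 array 4 or vehicle array 4. At day 6 against day 2, 3p was 0.86 to 1.30 (call lost without AAI day 2 array 1, 2, 3 or 5 or AAI day 6 array 1, 2 or 5) and 5p 0.78 to 1.17 (lost without AAI day 2 array 5 or AAI day 6 array 5). The 5p change at day 6 against day 4 was 0.51 to 0.91 and passed without AAI day 6 array 4 (adjusted p = 0.0364). Of 30 same-numbered pairs of arrays, 10 deviated together (r over 0.1), with a median r of -0.04 and a range of -0.62 to 0.64. Differently numbered pairs were not examined, so whether replicate numbers pair the arrays was not settled. With the replicate number as a block the arm difference was -1.69, -1.68 and -1.57 at AAI days 6, 4 and 2, and the calls of both arms and of the arm difference against vehicle were the same. With levels floored at the median over arrays of the lowest summed level well above background the arm difference was -1.63, -1.61 and -1.503 and with the brightest probe alone -1.27, -1.23 and -1.18, all past the threshold; with negative controls subtracted it was -3.16, -3.10 and -2.92, and 3p was 4.27, 3.48 and 3.04. When only miRNAs detected on all arrays were tested, 3p and the arm difference had no value. Every slide setting with a vehicle contrast other than the random block rests on vehicle array 5 alone. The count of tested miRNAs past the threshold at day 6 against vehicle, 69, ranged from 0 to 88 over other settings and from 58 to 89 with 1 array left out. At day 4 (10) it ranged from 0 to 14 and from 7 to 21, at day 2 (4) from 0 to 9 and from 0 to 5, and at day 6 against day 2 (30) from 0 to 95 and from 6 to 49. The count of hairpins against vehicle ranged from 0 to 9 and 6 to 13 at day 6 (10), from 0 to 6 and 3 to 6 at day 4 (4) and from 0 to 4 and 2 to 4 at day 2 (2). That 3p lay near background in vehicle kidneys limits each 3p and arm-difference value against vehicle.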

Other observations

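The scanner software's own total for the 3p arm did not follow its probes. The total was 8.51 to 59.3 times the sum of the software's probe totals on 16 of 20 arrays, equal to it within 5% on 2 (AAI day 6 arrays 1 and 5) and below it on 2 (vehicle arrays 4 and 5). For the 5p arm it equalled that sum on 20 of 20 arrays. Between 58 and 81 detected miRNAs per array had a total that differed from the sum by over 5%. The 3 vehicle arrays on which the software marked the 3p arm as present (arrays 1 to 3) were among the 16. Why the totals differ was not tested.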
